A study of Rattus norvegicus with 10 samples.

Results

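Cartilage taken 4 weeks after an enzymatic joint injury was compared with healthy cartilage in rat knees, over 5 of the 10 messenger RNA libraries of the series. The OAC group holds 3 libraries from knees that had received papain with L-cysteine in the joint 4 weeks earlier. The HC group holds 2 libraries from untreated, wild-type control knees. The members were taken from the sample labels. The other 5 libraries (SHAM and KT, both at 10 weeks after papain and with a viral vector) entered the estimate of the spread and the level filter. They also entered the scalings and covariate fits given as alternatives. All labels give an age of 5 months. Strain, sex, pooling and the number of animals were not given in the sources used here, so the spread behind each p-value is that of these libraries and may be technical. HC joints were labelled untreated, so the effect of the enzyme and that of an injection cannot be told apart. Run names kept in a file header carry 3 tags, and tag 2 occurs only among OAC libraries, in 2 of 3, so whatever the tag stands for is partly confounded with OAC.

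Papain, a plant protease kept active by L-cysteine, digests the proteoglycan of cartilage, and its injection into a joint is used to model osteoarthritis. Articular cartilage consists of chondrocytes in a matrix of type II collagen fibrils, which bear tension, and aggrecan, a proteoglycan whose charged sugar chains hold water and resist compression. Matrix metalloproteinases cleave the collagens and ADAMTS proteases cleave aggrecan. Beneath the cartilage lies a calcified layer and then bone, where osteoclasts resorb mineralised matrix under the control of the ligand RANKL, its receptor RANK and the decoy receptor osteoprotegerin, and bone marrow fills the spaces below.

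At 4 weeks the collagenase gene Mmp13 was 8.30 times the healthy mean and the cartilage collagen gene Col2a1 4.10 times, while the aggrecan gene Acan was 1.98 times lower and the osteoprotegerin gene Tnfrsf11b 2.41 times lower. Among groups of genes, 11 of 14 tested matrix metalloproteinases, 14 of 16 osteoclast genes, 20 of 22 neutrophil and marrow myeloid genes and 37 of 38 cell division genes rose, and 0 fell in any of these groups. Of 17 cartilage proteoglycans and adaptors 0 rose and 3 fell, and of 15 circadian clock genes 0 rose and 6 fell. Of all genes tested, 23.4% rose and 6.27% fell. Without OAC replicate 2, higher calls in the groups that rose numbered 7, 9, 20 and 36, in the order given. Lower calls then numbered 2 among proteoglycans and adaptors and 3 among clock genes. Over all genes that fit gave 1778 higher and 385 lower calls. Reads on blood and marrow genes were also higher in all 3 OAC libraries, and 1 of the 2 HC libraries held muscle RNA.

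The labelled tissue was checked against its markers. All 8 chondrocyte markers (Col2a1, Acan, Sox9, Prg4, Comp, Hapln1, Matn3 and Cnmd) were detected in each of the 5 libraries, the lowest being Matn3 at 4.11 FPKM in HC replicate 1. FPKM are fragments scaled to exon length in kilobases and to a library of 1000000 fragments, and values of single libraries are in the order of replicate numbers. Depth recovered from the files, in units of 1000000 reads, was 54.6 to 70.9 per library, of which listed genes held 58.6 and 58.8% in HC and 62.8 to 64.4% in OAC. The cartilage had been cut from the joint surface with a blade, per the labels' protocols, and RNA of other tissues was present in amounts that differed between libraries. Skeletal muscle genes held 9.82% of the reads on listed genes in HC replicate 1, 0.118% in HC replicate 2 and 0.0638 to 0.357% in OAC. Erythroid genes held 2.33 and 2.13% in HC and 3.29 to 5.76% in OAC. Neutrophil and marrow myeloid genes held 0.534 and 0.398% in HC and 1.70 to 2.46% in OAC, and macrophage genes 0.329 and 0.278% in HC and 0.744 to 0.950% in OAC. The muscle share sets a single HC library apart, and the blood and marrow shares separate the groups without overlap. In such bulk samples fewer cells of a type and less RNA per cell cannot be told apart.

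**Figure D1:**
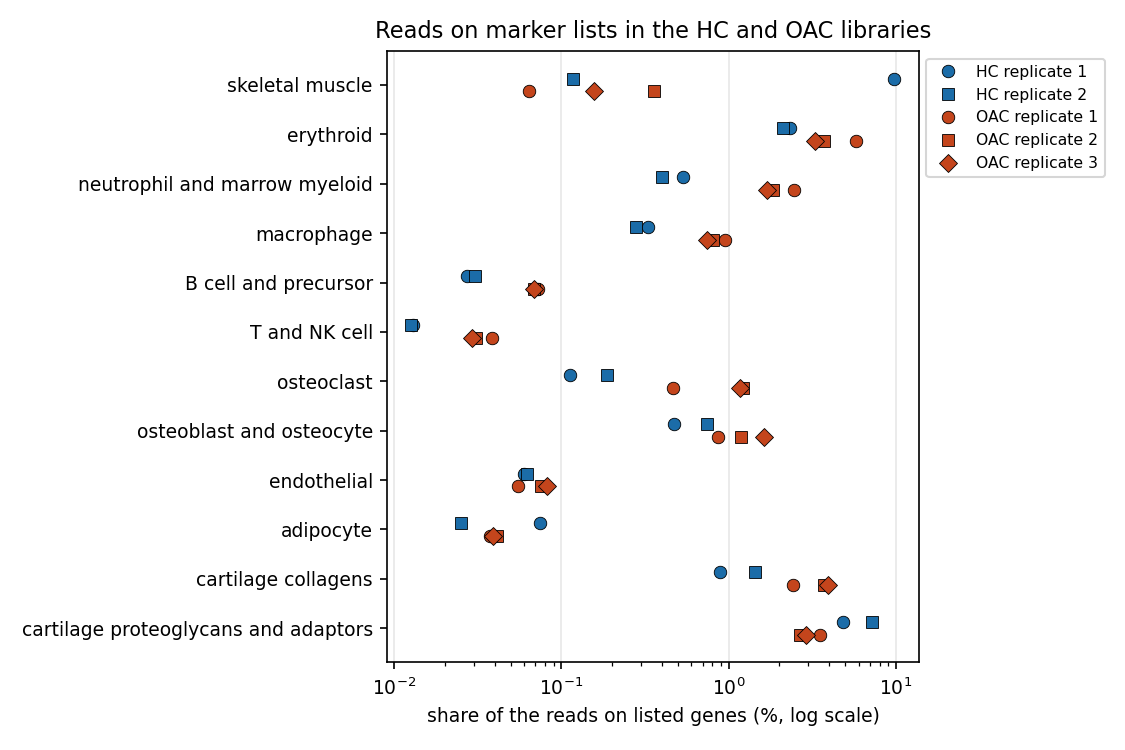
Share of the reads on listed genes that fell on each marker list (%, log scale) in the 2 HC libraries (blue) and the 3 OAC libraries (red). HC replicate 1 stands apart at 9.82% for skeletal muscle, and the erythroid, neutrophil and macrophage shares of the OAC libraries lie above both HC libraries.

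Among 11282 genes tested, 3348 differed between OAC and HC, which is 29.7% of them. Of these, 2641 were higher in OAC (23.4% of genes tested) and 707 lower (6.27%), so 78.9% of the calls were upward. A log2 change is the difference of group means on log2(FPKM + 1), and a gene was called, or passed, at an adjusted p under 0.05 in limma's linear model with Benjamini-Hochberg (BH) adjustment over all genes tested. The median change of all genes was 0.14. All OAC libraries lay above both HC libraries in 4685 of the 11282 genes and below both in 1662. Groups without overlap were thus common. The balance of directions depended on scaling: quantile normalization gave 1727 higher of 3001 calls, median-of-ratios scaling 1732 of 3085, and voom on recovered reads 1807 of 2793. Without OAC replicate 2 there were 1778 higher and 385 lower calls, and without OAC replicate 3 there were 2088 and 396. The calls that held with each of the 5 libraries left out in turn numbered 1350 higher (12% of genes tested) and 253 lower (2.24%). Of those, 1244 higher and 253 lower also held under the 3 scalings.

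With the muscle score as a covariate limma called 3145 genes. With a marrow score, made from the neutrophil and erythroid lists, as a covariate limma called 0, the lowest BH-adjusted p being 0.0815, while 2308 genes had an unadjusted p under 0.05. That score was -0.81 and -1.46 in HC and 0.15 to 0.77 in OAC, so marrow content and injury cannot be told apart in these libraries. In the authors' deposited table, made with DESeq2, 3716 genes were called, 1922 higher and 1794 lower in OAC. Of the calls made here on genes with a fold change in the authors' deposited table, 73.9% were also called there, and 69.5% of the authors' calls on tested genes were called here.

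**Figure D2:**
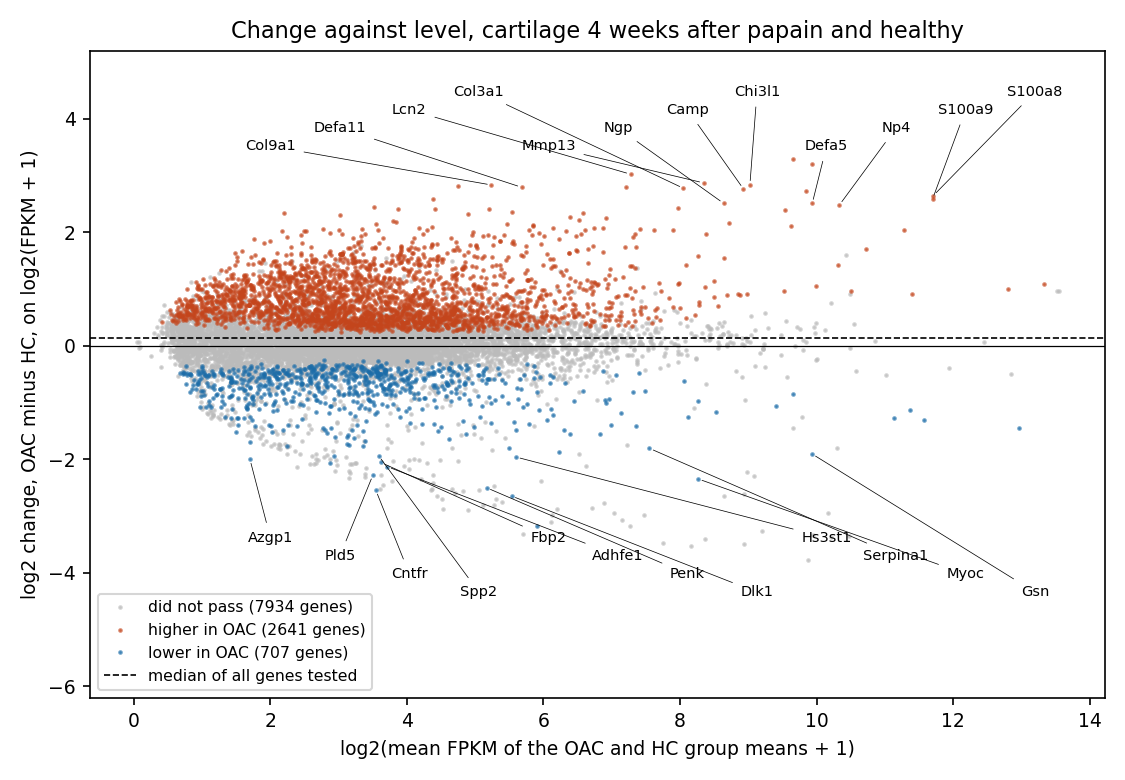
Log2 change (OAC minus HC) against the level, log2(mean of the group means in FPKM + 1), for 11282 genes; colours mark the 2641 called higher and the 707 called lower, and labels the 12 largest changes in each direction that held with each library left out. The median of all genes (dashed) lies at 0.14, and the labelled changes reach 3.02 for Lcn2 and -2.64 for Dlk1.

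Muscle genes differed widely between the HC libraries. Acta1, the actin of the skeletal muscle sarcomere, stood at 3627 and 27.6 FPKM in HC and 2.88, 84.8 and 38.2 in OAC. Ckm, the muscle creatine kinase, stood at 1904 and 11.2 FPKM in HC and 1.51, 46.1 and 20.3 in OAC. HC replicate 1 was far above the other 4 libraries for both, and neither passed (limma, BH-adjusted p = 0.27 for Acta1 and 0.31 for Ckm). Of the genes tested, 218 were at least 4-fold higher in HC replicate 1 than in HC replicate 2, 25 of them in the muscle list, and 2 were at least as much higher in HC replicate 2. Pairs of OAC libraries differed as much in 18 to 41 genes. Of 33 muscle genes in the table, 5 were under 1 FPKM in HC replicate 1, 3 in HC replicate 2 and 13, 4 and 5 in OAC. The 31 tested members had a median log2 change of -2.85, which was -0.08 without HC replicate 1 and -5.69 without HC replicate 2. The member that fell was Tcap, a sarcomere protein, at 203 and 18.9 FPKM in HC and 2.40, 13.4 and 6.15 in OAC (limma, BH-adjusted p = 0.029), a call lost without HC replicate 1 (limma, BH-adjusted p = 0.15), OAC replicate 1 (0.080) or OAC replicate 3 (0.066). Lower calls in the list numbered 0 without HC replicate 1, OAC replicate 1 or OAC replicate 3 and 11 without HC replicate 2.

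Genes of energy metabolism depended on the same library. Of 45 tested genes of the respiratory chain, the mitochondrial machinery of oxidative metabolism, 1 rose and 44 did not pass, at a median log2 change of -0.10. The higher calls numbered 31 without HC replicate 1, at a median of 0.54. The lower calls numbered 39 without HC replicate 2, at a median of -0.73. The direction of this list rested on which HC library was kept. The member that rose was Cox8a, a subunit of cytochrome oxidase, at 92.0 and 101 FPKM in HC and 152, 159.9 and 153 in OAC. Its groups did not overlap, and the call held with each library left out (limma, BH-adjusted p = 0.0028).

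**Figure D3:**
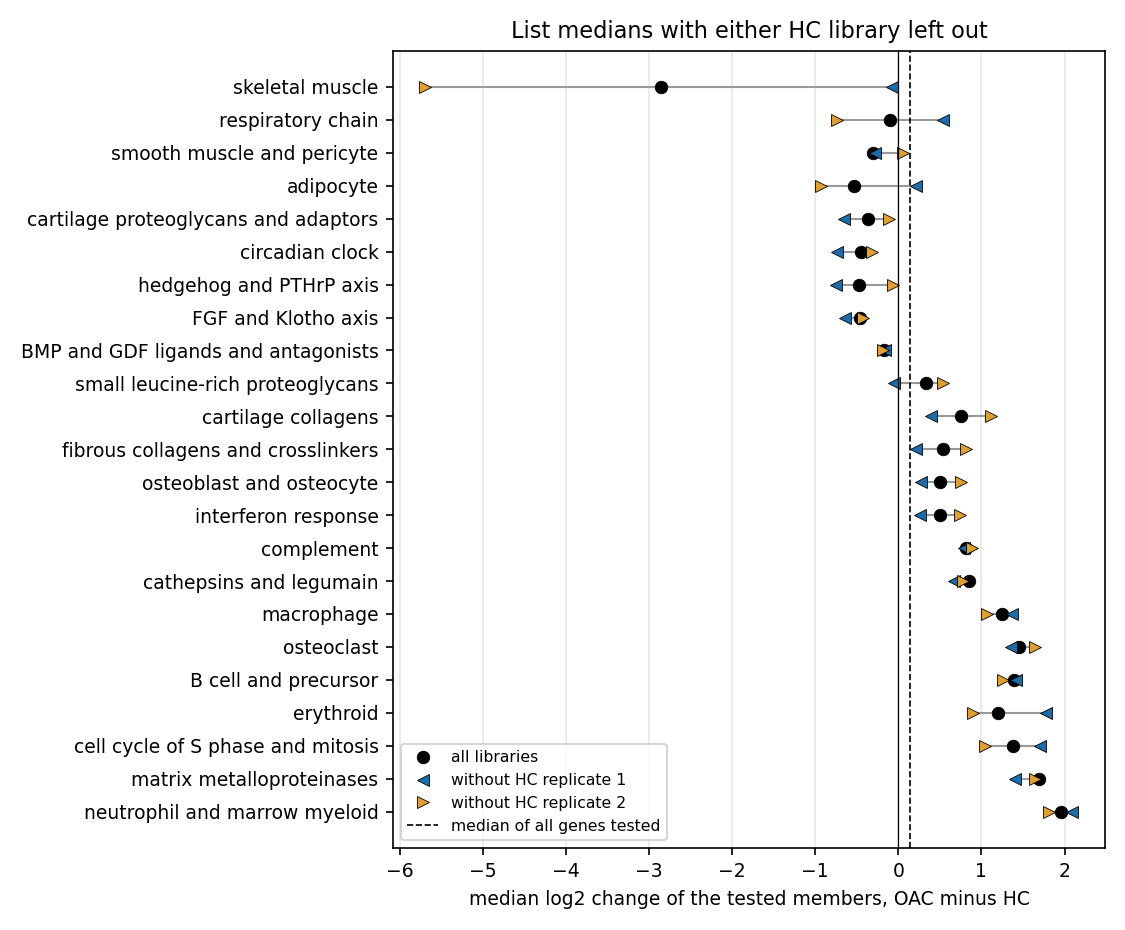
Median log2 change (OAC minus HC, on log2(FPKM + 1)) of the tested members of each list with all libraries (black), without HC replicate 1 (blue) and without HC replicate 2 (orange); the dashed line is the median of all genes tested. Skeletal muscle moves from -5.69 to -0.08 and respiratory chain from -0.73 to 0.54, while the matrix metalloproteinase, neutrophil and cell cycle medians stay above 1.

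Most matrix metalloproteinases rose. Of 14 tested 11 rose, 0 fell and 3 did not pass, at a median log2 change of 1.69. Mmp13, a collagenase that cuts type II fibrils (NM_133530, chromosome 8 from 5522739 to 5533018 in rn6), stood at 71.6 and 67.9 FPKM in HC and 286, 517 and 934 in OAC. The OAC libraries spread about 3-fold among themselves, each was about 4 times HC or more, and the log2 change was 2.87 (SE 0.60) (limma, BH-adjusted p = 0.0091). Mmp3, or stromelysin 1, which cleaves proteoglycan and activates other proteases, stood at 21.4 and 34.8 FPKM in HC and 109, 169 and 136 in OAC. The OAC libraries were all at least 3 times the higher HC library (limma, BH-adjusted p = 0.0013). Mmp10, or stromelysin 2, stood at 2.66 and 3.96 FPKM in HC and 11.2, 16.9 and 14.6 in OAC. Mmp12, an elastase of macrophages, stood at 0.606 and 0.206 FPKM in HC and 4.998, 5.90 and 2.27 in OAC. Both were low in HC and did not overlap between the groups (limma, BH-adjusted p = 0.0018 for Mmp10 and 0.0085 for Mmp12). Mmp19, a proteinase of the stroma and basement membrane, stood at 1.28 and 1.27 FPKM in HC and 5.91, 6.11 and 7.86 in OAC, 5.1999 times the HC mean (limma, BH-adjusted p = 0.00070). Mmp8, the collagenase of neutrophil granules, stood at 43.2 and 20.8 FPKM in HC and 143, 107 and 129.7 in OAC (limma, BH-adjusted p = 0.0058). These 6 calls held with each library left out.

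Both gelatinases, named here after their values were seen, were called as well. Mmp2 stood at 40.1 and 74.4 FPKM in HC and 181, 189.6 and 152 in OAC, with no overlap and a call that held throughout (limma, BH-adjusted p = 0.0024). Mmp9, the gelatinase of osteoclasts and neutrophils, stood at 28.0 and 37.6 FPKM in HC and 114, 332 and 332 in OAC (limma, BH-adjusted p = 0.026). Its call was lost without HC replicate 1 (limma, BH-adjusted p = 0.095), HC replicate 2 (0.062), OAC replicate 2 (0.079) or OAC replicate 3 (0.073). Higher calls in the family numbered 7 without HC replicate 1, OAC replicate 2 or OAC replicate 3, and lower calls 1 without HC replicate 2. Neutrophil, macrophage and osteoclast reads rose in the same libraries, and their part in this family was not tested.

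Promoters of Mmp13, Mmp12, Mmp3 and Mmp10 are shown because these genes rose, lie in one gene cluster and carry the same short element. The sequences are the 250 bases before the gene start in RefSeq (build GRCr8), all on the plus strand of chromosome 8. Capitals mark TGANTCA, the site of AP-1 transcription factors, searched on both strands. The windows span 12782579 to 12782828 for Mmp13, 12866402 to 12866651 for Mmp12, 12925031 to 12925280 for Mmp3 and 12974457 to 12974706 for Mmp10.
Mmp13: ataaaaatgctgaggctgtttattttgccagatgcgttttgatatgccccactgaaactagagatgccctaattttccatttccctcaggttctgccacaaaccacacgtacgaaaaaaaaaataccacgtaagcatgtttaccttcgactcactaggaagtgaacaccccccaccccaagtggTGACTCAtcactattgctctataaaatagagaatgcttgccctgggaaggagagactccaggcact
Mmp12: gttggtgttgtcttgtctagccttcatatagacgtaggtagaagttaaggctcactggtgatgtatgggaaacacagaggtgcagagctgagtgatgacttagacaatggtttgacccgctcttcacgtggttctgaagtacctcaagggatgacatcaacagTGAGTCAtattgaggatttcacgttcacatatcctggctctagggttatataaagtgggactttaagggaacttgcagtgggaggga
Mmp3: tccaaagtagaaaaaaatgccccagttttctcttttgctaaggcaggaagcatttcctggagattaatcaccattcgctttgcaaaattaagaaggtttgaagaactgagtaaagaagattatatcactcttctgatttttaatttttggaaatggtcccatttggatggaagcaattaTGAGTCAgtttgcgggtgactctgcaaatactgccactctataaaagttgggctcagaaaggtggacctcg
Mmp10: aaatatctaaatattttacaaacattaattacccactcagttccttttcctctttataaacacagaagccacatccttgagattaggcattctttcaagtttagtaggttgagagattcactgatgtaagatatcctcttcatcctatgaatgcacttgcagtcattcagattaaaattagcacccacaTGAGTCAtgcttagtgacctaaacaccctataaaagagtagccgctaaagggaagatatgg
The match starts 66 bases before the gene start in Mmp13, 87 in Mmp12, 71 in Mmp3 and 61 in Mmp10. In Mmp13 the letters are TGACTCA and in the others TGAGTCA. The motif was present in 6.34% of the 33469 rat promoters in the table. Of the 11 matrix metalloproteinases that rose 7 had a promoter in the table, 4 of them with a match, and of the 3 that did not pass 2 had one, 0 with a match. These genes are related copies, so their matches are not separate observations.

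ADAMTS and ADAM proteases rose in part. Of 16 tested 8 rose, 1 fell and 7 did not pass, at a median log2 change of 0.51, and higher calls numbered 2 without HC replicate 1. Adamts5, the main aggrecanase of mouse cartilage, stood at 2.38 and 3.26 FPKM in HC and 3.67, 4.04 and 3.01 in OAC. The groups overlapped, and it did not pass (limma, BH-adjusted p = 0.33). Adamts4, the other main aggrecanase, was low, at 0.255 and 0.347 FPKM in HC and 0.776, 1.27 and 1.36 in OAC. It was called (limma, BH-adjusted p = 0.041), and the call was lost without HC replicate 1 (limma, BH-adjusted p = 0.13), HC replicate 2 (0.085), OAC replicate 2 (0.11) or OAC replicate 3 (0.11). Adam10, a sheddase of membrane proteins, rose, at 10.5 and 11.1 FPKM in HC and 16.9, 19.2 and 21.2 in OAC (limma, BH-adjusted p = 0.0038). Adam19, of the same family, rose, at 1.97 and 1.42 FPKM in HC and 4.13, 4.19 and 4.23 in OAC (limma, BH-adjusted p = 0.0082). Adam15, which carries both a protease and an integrin-binding domain, fell, at 23.2 and 33.5 FPKM in HC and 15.9, 18.5 and 14.3 in OAC (limma, BH-adjusted p = 0.0088). The calls of Adam10, Adam19 and Adam15 held with each library left out.

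Most lysosomal proteases rose. Of 13 tested cathepsins and legumain 9 rose and 0 fell, at a median log2 change of 0.84, with higher calls at 5 without HC replicate 1. Ctsz, a carboxypeptidase of phagocytes (NM_183330, chromosome 3 from 172527107 to 172537877 in rn6), stood at 28.3 and 34.1 FPKM in HC and 116, 173 and 161 in OAC. All OAC libraries were at least 3 times the higher HC library (limma, BH-adjusted p = 0.00092). The aminopeptidase-type cathepsins Ctsc and Ctsh rose 2.33- and 1.85-fold, the aspartic protease Ctse 2.56-fold and legumain, Lgmn, 1.82-fold, each with a call that held with each library left out.

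Inhibitors and activators of proteases moved both ways. Timp1, a secreted inhibitor of the metalloproteinases, stood at 63.5 and 106 FPKM in HC and 181, 228 and 259 in OAC, with no overlap and 2.62 times the HC mean (limma, BH-adjusted p = 0.0044). Timp3, which also inhibits the aggrecanases, stood at 98.4 and 148 FPKM in HC and 119, 156 and 124 in OAC and overlapped between the groups (limma, BH-adjusted p = 0.72). Serpina1, which encodes alpha-1 antitrypsin, the inhibitor of neutrophil elastase, stood at 337 and 245 FPKM in HC and 63.3, 96.5 and 88.2 in OAC. Both HC libraries were more than 2 times any OAC library, and the log2 change was -1.81 (SE 0.37) (limma, BH-adjusted p = 0.0081). Of 14 tested inhibitors 2 rose and 4 fell, at a median of 0.03. Higher calls there numbered 1 without HC replicate 2, and lower calls 1 without HC replicate 2 or OAC replicate 2 and 2 without OAC replicate 1 or OAC replicate 3. Of 15 genes of plasminogen activation and clotting 7 rose and 0 fell, at a median of 0.53, and higher calls numbered 1 without HC replicate 1 and 4 without OAC replicate 1 or OAC replicate 2. Plaur, the urokinase receptor, held with each library left out, at 4.57 and 3.63 FPKM in HC and 13.4, 13.8 and 12.9 in OAC (limma, BH-adjusted p = 0.00077).

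Col2a1 and Col9a1, chains of the cartilage fibril, rose. Of 7 tested cartilage collagens 3 rose and 0 fell, at a median log2 change of 0.75, and lower calls numbered 1 without HC replicate 1. Col2a1, the chain of type II collagen (NM_012929, chromosome 7 from 139455242 to 139483997 in rn6), stood at 727 and 1213 FPKM in HC and 2741, 4544 and 4644 in OAC. The lowest OAC library was more than 2 times the highest HC library (limma, BH-adjusted p = 0.0075). Col9a1, a chain of the type IX collagen that coats that fibril, stood at 7.30 and 8.93 FPKM in HC and 47.5, 67.0 and 81.5 in OAC. It was among the 12 largest rises that held with each library left out, with a log2 change of 2.84 (SE 0.41) (limma, BH-adjusted p = 0.0022). Col11a1, a chain of the type XI collagen inside the fibril, stood at 56.8 and 104 FPKM in HC and 122, 190.5 and 229 in OAC (limma, BH-adjusted p = 0.045). It lost its call without HC replicate 1 (limma, BH-adjusted p = 0.23), OAC replicate 2 (0.11) or OAC replicate 3 (0.12). Partner chains, named after their values were seen, did not pass. Col9a2 stood at 59.6 and 93.6 FPKM in HC and 96.2, 108 and 121 in OAC (limma, BH-adjusted p = 0.25). Col11a2 stood at 107 and 153 FPKM in HC and 107, 119 and 128 in OAC (limma, BH-adjusted p = 0.67). Whether the changes of chains of the same collagen differ from each other was not tested.

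Aggrecan fell in the same libraries in which Col2a1 rose. Acan (NM_022190, chromosome 1 from 140762758 to 140824441 in rn6) stood at 350.3 and 460.2 FPKM in HC and 175, 239 and 200.2 in OAC, and each OAC library was below both HC libraries (limma, BH-adjusted p = 0.0069). Its call held with each library left out. Chad, or chondroadherin, a cell-binding protein of the matrix, had the highest FPKM of any listed gene in both HC libraries, at 8816 and 14454 FPKM in HC and 6131, 3285 and 3551 in OAC. It fell without overlap (limma, BH-adjusted p = 0.018), but the call was lost without HC replicate 2 (limma, BH-adjusted p = 0.10), OAC replicate 2 (0.063) or OAC replicate 3 (0.055). Prelp, a leucine-rich protein that anchors matrix to cells, stood at 847 and 1230.3 FPKM in HC and 567, 549 and 585 in OAC (limma, BH-adjusted p = 0.012) and lost its call without HC replicate 2 (limma, BH-adjusted p = 0.055). Hapln1, the link protein that fastens aggrecan to hyaluronan, stood at 232 and 414 FPKM in HC and 339, 305 and 358 in OAC. Comp, which bridges collagen fibrils, stood at 981 and 1258 FPKM in HC and 875, 1027 and 930.5 in OAC. Both overlapped between the groups (limma, BH-adjusted p = 0.79 for Hapln1 and 0.48 for Comp). Of 17 tested proteoglycans and adaptors 0 rose, 3 fell and 14 did not pass, at a median log2 change of -0.36. Lower calls numbered 6 without HC replicate 1 and 1 without HC replicate 2, and 6 with the muscle score as a covariate. In reads on listed genes, the list held 4.83 and 7.24% in HC and 2.68 to 3.53% in OAC, while the cartilage collagens held 0.883 and 1.44% in HC and 2.42 to 3.94% in OAC.

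**Figure D4:**
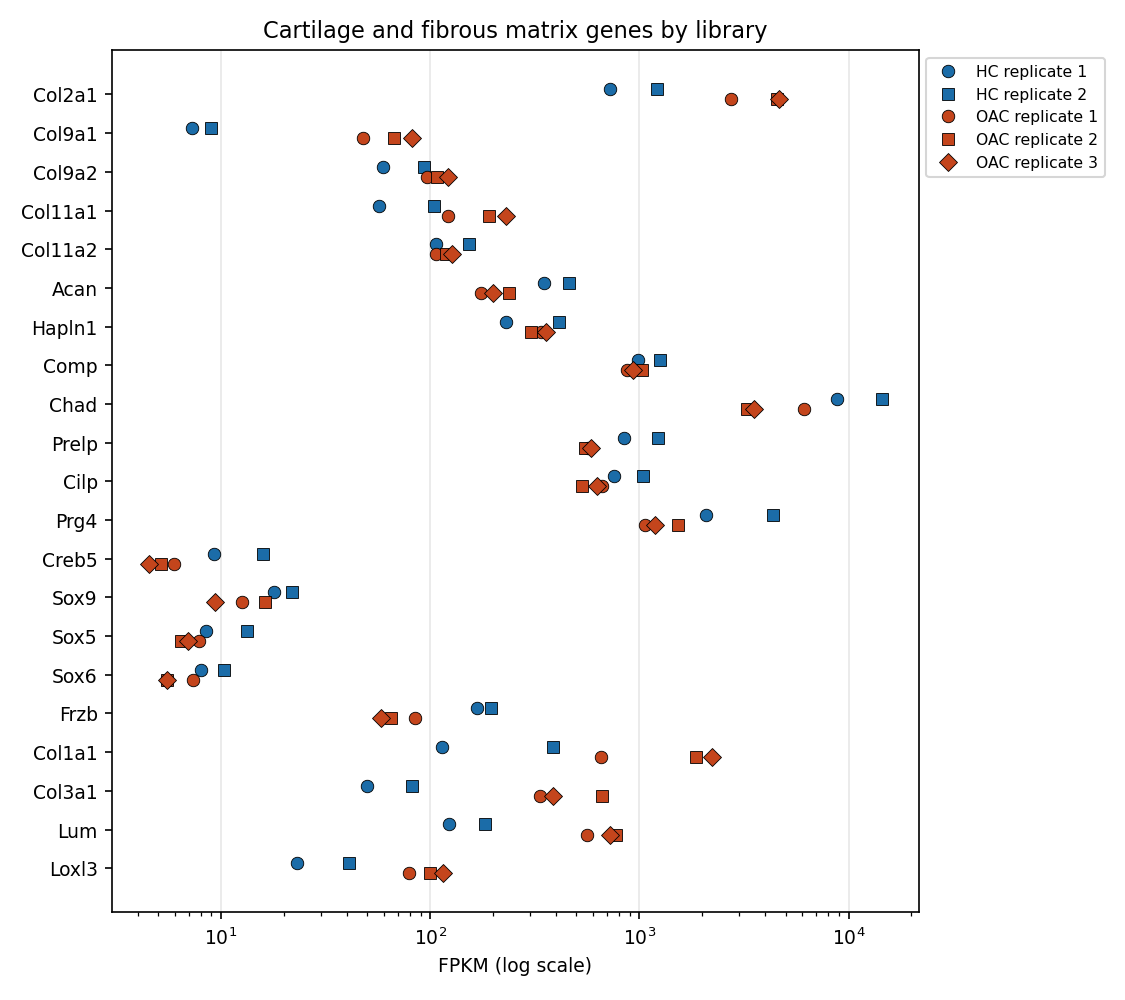
FPKM (log scale) of cartilage and fibrous matrix genes and chondrocyte regulators in each HC (blue) and OAC (red) library. Col2a1, Col9a1, Col3a1, Lum and Loxl3 are higher in each OAC library, while Acan, Chad, Prelp, Prg4, Creb5 and Frzb are lower.

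Genes of the joint surface were lower in part. Prg4, the lubricin gene, stood at 2072 and 4344 FPKM in HC and 1062, 1536 and 1188 in OAC (limma, BH-adjusted p = 0.025). The HC libraries differed from each other by more than the lower of them differed from OAC, and the call was lost without HC replicate 2 (limma, BH-adjusted p = 0.15), OAC replicate 1 (0.070) or OAC replicate 3 (0.066). Creb5, a transcription factor of the superficial zone that promotes lubricin expression, stood at 9.28 and 15.8 FPKM in HC and 5.95, 5.15 and 4.52 in OAC. It fell with each library left out (limma, BH-adjusted p = 0.0086). Cd44, the hyaluronan receptor, rose, at 27.3 and 29.9 FPKM in HC and 54.0, 52.9 and 47.2 in OAC (limma, BH-adjusted p = 0.0049). Of 9 tested surface genes 1 rose and 2 fell, at a median log2 change of -0.33, with lower calls at 1 without HC replicate 2, OAC replicate 1 or OAC replicate 3.

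Sox9 and its partners, which set the chondrocyte state, were lower in OAC, and no call on them held with each library left out. Sox9, the master regulator, stood at 18.0 and 21.8 FPKM in HC and 12.6, 16.2 and 9.34 in OAC. All OAC libraries lay below both HC libraries, but Sox9 did not pass (limma, BH-adjusted p = 0.085). Its partner Sox5 stood at 8.48 and 13.24 FPKM in HC and 7.83, 6.47 and 6.93 in OAC (limma, BH-adjusted p = 0.039), and the call was lost without HC replicate 2 (limma, BH-adjusted p = 0.22), OAC replicate 1 (0.051), OAC replicate 2 (0.11) or OAC replicate 3 (0.091). Its partner Sox6 stood at 7.99 and 10.3 FPKM in HC and 7.35, 5.54 and 5.54 in OAC (limma, BH-adjusted p = 0.025), and the call was lost without HC replicate 2 (limma, BH-adjusted p = 0.14), OAC replicate 2 (0.083) or OAC replicate 3 (0.077). Foxo3, a stress-response factor of chondrocytes, rose, at 6.13 and 6.88 FPKM in HC and 9.23, 11.2 and 12.3 in OAC (limma, BH-adjusted p = 0.0099). Of 18 tested regulators 2 rose and 3 fell, at a median log2 change of -0.29. Higher calls numbered 1 without OAC replicate 2, and lower calls 1 without HC replicate 2 or OAC replicate 1 and 0 without OAC replicate 2 or OAC replicate 3.

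Enzymes that build and sulfate the sugar chains of proteoglycans were called at a share close to that of all genes. Of 24 tested 6 rose and 0 fell, at a median log2 change of 0.10. Higher calls numbered 2 without HC replicate 1 or OAC replicate 2 and 3 without OAC replicate 1 or OAC replicate 3, and lower calls 1 without HC replicate 1. Chsy1, a chondroitin synthase, stood at 8.02 and 10.8 FPKM in HC and 14.4, 17.3 and 19.1 in OAC (limma, BH-adjusted p = 0.0093). Chst13, a chondroitin sulfotransferase, stood at 0.866 and 1.06 FPKM in HC and 2.76, 3.36 and 3.92 in OAC (limma, BH-adjusted p = 0.0070). Both rose without overlap and with each library left out. Hs3st1, which sulfates heparan sulfate and is not in that list, stood at 66.9 and 85.1 FPKM in HC and 22.7, 16.6 and 17.3 in OAC. It was among the 12 largest falls that held with each library left out, 4.03 times lower (limma, BH-adjusted p = 0.0024).

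Fibrous matrix genes rose in a subset. Of 26 tested 10 rose, 1 fell and 15 did not pass, at a median log2 change of 0.54, and higher calls numbered 3 without HC replicate 1 and 6 without OAC replicate 2 or OAC replicate 3. Col3a1, a collagen of loose and healing connective tissue (NM_032085, chromosome 9 from 52023295 to 52059221 in rn6), stood at 49.7 and 81.4 FPKM in HC and 335, 665 and 388 in OAC. Its OAC libraries were each at least 4 times the higher HC library, and the log2 change was 2.78 (SE 0.31) (limma, BH-adjusted p = 0.0011). Loxl3, a lysyl oxidase that crosslinks collagen, stood at 23.0 and 41.0 FPKM in HC and 79.5, 100.1 and 115 in OAC (limma, BH-adjusted p = 0.0023). Loxl4, of the same family, stood at 14.9 and 19.2 FPKM in HC and 31.2, 44.3 and 31.8 in OAC (limma, BH-adjusted p = 0.0097). Both rose with each library left out. Col1a1, the collagen of bone and fibrous tissue, stood at 114 and 387 FPKM in HC and 653, 1875 and 2216 in OAC (limma, BH-adjusted p = 0.021). The HC libraries were themselves more than 3-fold apart, and the call was lost without HC replicate 1 (limma, BH-adjusted p = 0.12), OAC replicate 2 (0.066) or OAC replicate 3 (0.063). Postn, or periostin, a matrix protein of remodelling tissue, stood at 3.56 and 6.33 FPKM in HC and 16.2, 66.0 and 24.1 in OAC, highest in OAC replicate 2 (limma, BH-adjusted p = 0.019), and its call was lost without HC replicate 1 (limma, BH-adjusted p = 0.088). Thbs2, a matricellular protein that restrains vessel growth, fell, at 196 and 192 FPKM in HC and 79.2, 79.3 and 95.4 in OAC, with each library left out (limma, BH-adjusted p = 0.0011).

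Lum, or lumican, a leucine-rich proteoglycan that spaces collagen fibrils, stood at 123 and 182 FPKM in HC and 560.2, 770.2 and 726 in OAC. Each OAC library was at least 3 times the higher HC library (limma, BH-adjusted p = 0.00092). Of 8 tested small leucine-rich proteoglycans 2 rose and 2 fell, at a median log2 change of 0.33. Higher calls numbered 1 without HC replicate 1, HC replicate 2, OAC replicate 2 or OAC replicate 3, and lower calls 0 without HC replicate 2 and 1 without OAC replicate 2 or OAC replicate 3. Of 14 synovial fibroblast genes 7 rose and 0 fell, at a median of 0.74, with higher calls at 3 without HC replicate 1, OAC replicate 1, OAC replicate 2 or OAC replicate 3, and lower calls at 1 without HC replicate 1. Dpp4, a peptidase of joint fibroblasts, stood at 1.82 and 2.01 FPKM in HC and 6.05, 6.29 and 5.25 in OAC (limma, BH-adjusted p = 0.00074). Thy1, a marker of sublining fibroblasts, stood at 11.9 and 17.9 FPKM in HC and 31.9, 44.3 and 41.5 in OAC (limma, BH-adjusted p = 0.0062). Both rose with each library left out, and the part of synovium in the fibrous genes was not tested.

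Most osteoclast genes rose. Of 16 tested 14 rose and 0 fell, at a median log2 change of 1.45, and the list held 0.113 and 0.186% of reads on listed genes in HC against 0.462 to 1.21% in OAC. Higher calls numbered 6 without HC replicate 1 and 9 without OAC replicate 2 or OAC replicate 3. Itgb3, the integrin chain by which osteoclasts attach to bone, stood at 13.8 and 12.7 FPKM in HC and 43.7, 54.2 and 64.0 in OAC. HC libraries were nearly equal, and each OAC library was more than 3 times either (limma, BH-adjusted p = 0.0012). Siglec15, a receptor needed for osteoclast fusion, stood at 0.385 and 1.10 FPKM in HC and 3.66, 6.27 and 8.84 in OAC (limma, BH-adjusted p = 0.0095). Tcirg1, a subunit of the acid pump of the resorption pit, stood at 12.2 and 16.9 FPKM in HC and 32.2, 39.7 and 46.6 in OAC (limma, BH-adjusted p = 0.0069). Src, the kinase of the ruffled border, and Car2, the carbonic anhydrase that supplies acid, rose 2.94- and 2.53-fold. These 5 calls held with each library left out. Erythroid, megakaryocyte and mast cell reads were higher in OAC as well, and their part in these genes was not tested. Acp5, the tartrate-resistant phosphatase, stood at 75.8 and 205 FPKM in HC and 502, 1822 and 2069.9 in OAC (limma, BH-adjusted p = 0.025). Ctsk, the collagenolytic cathepsin, stood at 98.6 and 294 FPKM in HC and 800.0, 2469.5 and 1969 in OAC (limma, BH-adjusted p = 0.0092). Both had larger log2 changes (3.30 and 3.20), but the HC libraries were about 3-fold apart. The call of Acp5 was lost without HC replicate 1 (limma, BH-adjusted p = 0.12), OAC replicate 2 (0.077) or OAC replicate 3 (0.073), and that of Ctsk without HC replicate 1 (limma, BH-adjusted p = 0.051). Nfatc1, the main transcription factor of osteoclast formation, named after its values were seen, stood at 13.1 and 17.3 FPKM in HC and 13.3, 15.8 and 15.9 in OAC and did not pass (limma, BH-adjusted p = 0.98).

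Most acid secretion genes rose as well. Of 18 tested subunits of the vacuolar proton pump, which acidifies lysosomes and the resorption pit, 14 rose and 0 fell, at a median log2 change of 0.72. Higher calls numbered 9 without HC replicate 1, OAC replicate 2 or OAC replicate 3. Atp6v1b2, a subunit of the pump's catalytic domain, stood at 21.3 and 26.5 FPKM in HC and 56.6, 81.9 and 88.1 in OAC, with no overlap and a call that held throughout (limma, BH-adjusted p = 0.0037).

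Among the signals that set osteoclast formation the decoy fell, and a ligand and the receptors rose. Tnfrsf11b, which encodes osteoprotegerin (NM_012870, chromosome 7 from 93798580 to 93826586 in rn6), stood at 328 and 453 FPKM in HC and 172, 166 and 148 in OAC. The OAC libraries lay close together and below both HC libraries, with a log2 change of -1.25 (SE 0.18) (limma, BH-adjusted p = 0.0019). Tnfsf11, which encodes RANKL, was listed at 0 in 4 of the 5 libraries and at 0.02 FPKM in OAC replicate 2. No fold is given, and a listed 0 does not show that the gene was absent. Tnfrsf11a, which encodes RANK, stood at 0.628 and 1.10 FPKM in HC and 2.40, 4.64 and 6.62 in OAC (limma, BH-adjusted p = 0.013), a call lost without HC replicate 1 (limma, BH-adjusted p = 0.060). Csf1r, the receptor of the growth factor of macrophages and osteoclast precursors, stood at 16.3 and 22.6 FPKM in HC and 52.4, 78.3 and 84.7 in OAC (limma, BH-adjusted p = 0.0020). Its ligand Csf1 stood at 4.45 and 5.19 FPKM in HC and 7.54, 9.07 and 8.84 in OAC (limma, BH-adjusted p = 0.0054). Both rose with each library left out. In all, 4 of 6 tested members of this axis rose and 1 fell.

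**Figure D5:**
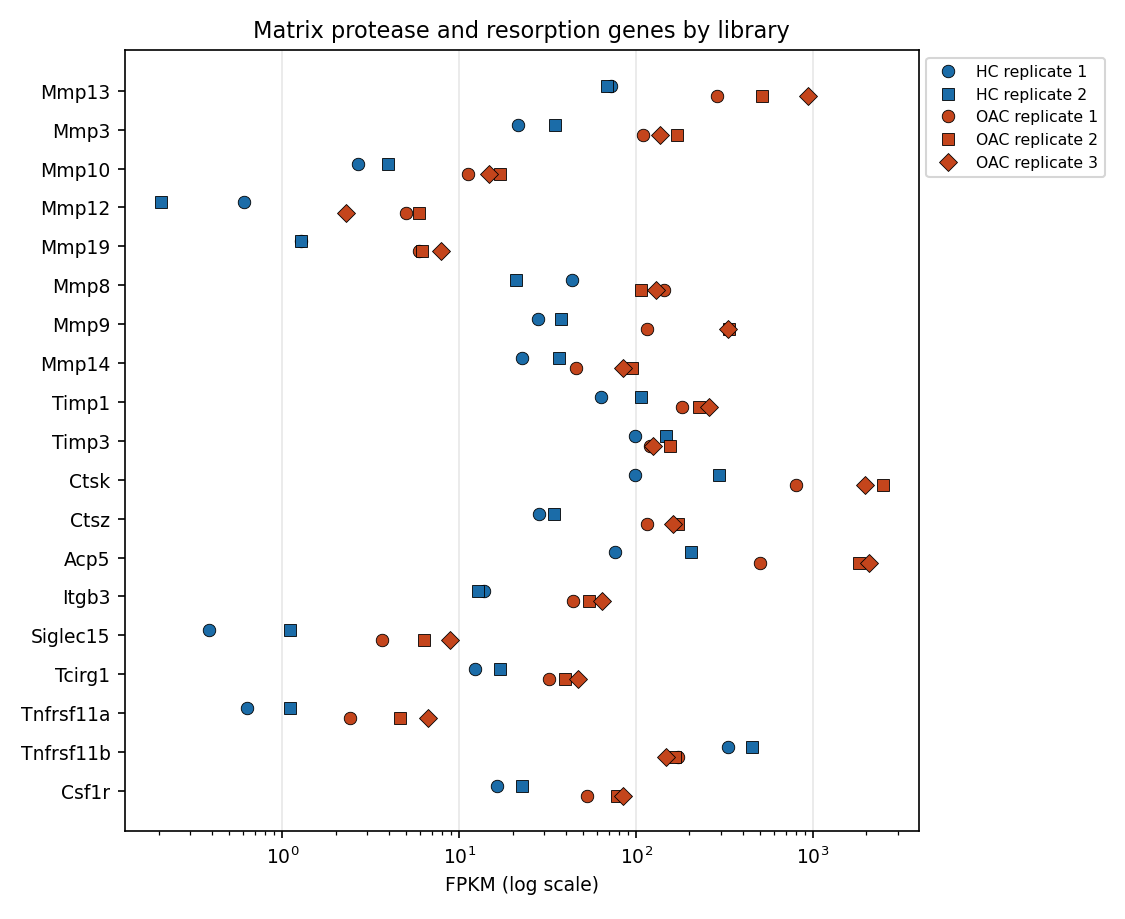
FPKM (log scale) of matrix protease, inhibitor and osteoclast genes in each HC (blue) and OAC (red) library. The OAC libraries lie above both HC libraries for each gene drawn except Timp3, which overlaps, and Tnfrsf11b, which is lower in OAC.

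Genes of bone formation were called at a share close to that of all genes. Of 17 osteoblast and osteocyte genes 3 rose and 1 fell, against 23.4 and 6.27% of all genes. Their median log2 change was 0.50, against 0.14 for all genes. Higher calls numbered 1 without HC replicate 1, and lower calls 0 without HC replicate 2 or OAC replicate 3. Ibsp, or bone sialoprotein, stood at 209 and 364 FPKM in HC and 826, 1036 and 2008 in OAC. Every OAC library was more than 2 times the higher HC library, and the call held throughout (limma, BH-adjusted p = 0.0061). Runx2, the transcription factor of osteoblasts and of chondrocyte hypertrophy, stood at 11.5 and 16.6 FPKM in HC and 14.9, 15.6 and 16.3 in OAC and overlapped between the groups (limma, BH-adjusted p = 0.66). The list held 0.473 and 0.745% of reads on listed genes in HC and 0.866 to 1.62% in OAC, and the part of bone in the osteoclast and collagen results was not tested. Of 11 genes of mineralisation control 1 rose and 0 fell, at a median of 0.06, with higher calls at 2 without HC replicate 2 and 0 without OAC replicate 2 or OAC replicate 3, and lower calls at 3 without HC replicate 1. The member that rose was Smpd3, a sphingomyelinase needed for mineral deposition, at 7.60 and 14.6 FPKM in HC and 26.9, 33.2 and 53.9 in OAC (limma, BH-adjusted p = 0.025). It lost its call without HC replicate 1 (limma, BH-adjusted p = 0.13), OAC replicate 2 (0.056) or OAC replicate 3 (0.072).

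Secreted antagonists of Wnt and BMP signals were among the genes that fell. Frzb, a decoy for Wnt ligands (NM_001100527, chromosome 3 from 67635605 to 67668772 in rn6), stood at 168 and 195 FPKM in HC and 84.1, 64.8 and 58.4 in OAC. The OAC libraries lay well below HC, 2.63 times lower in the mean (limma, BH-adjusted p = 0.0016). Sfrp5, of the same family of decoys, stood at 50.6 and 88.1 FPKM in HC and 24.7, 16.7 and 15.5 in OAC (limma, BH-adjusted p = 0.0089). Rspo1, which amplifies Wnt signals, rose from a low level, at 0.453 and 0.54 FPKM in HC and 2.34, 2.43 and 2.06 in OAC (limma, BH-adjusted p = 0.0021). These 3 calls held with each library left out. Of 30 tested Wnt genes 5 rose and 7 fell, at a median log2 change of -0.05. Higher calls numbered 2 without HC replicate 1, OAC replicate 2 or OAC replicate 3, and lower calls 2 without HC replicate 2 and 4 without OAC replicate 2 or OAC replicate 3. Grem1, a BMP antagonist of articular cartilage, stood at 95.4 and 137 FPKM in HC and 46.2, 24.7 and 24.8 in OAC (limma, BH-adjusted p = 0.031). It lost its call without HC replicate 1 (limma, BH-adjusted p = 0.057), HC replicate 2 (0.12), OAC replicate 2 (0.090) or OAC replicate 3 (0.084). Twsg1, a BMP-binding protein, stood at 50.002 and 70.5 FPKM in HC and 39.1, 32.9 and 34.0 in OAC and fell with each library left out (limma, BH-adjusted p = 0.0095). Bmp2, a ligand, stood at 8.02 and 11.4 FPKM in HC and 6.33, 9.66 and 4.76 in OAC and did not pass (limma, BH-adjusted p = 0.17). Of 27 tested BMP genes 1 rose and 6 fell, at a median of -0.17. Higher calls numbered 0 without HC replicate 1, OAC replicate 1, OAC replicate 2 or OAC replicate 3, and lower calls 2 without HC replicate 1, 1 without HC replicate 2 and 3 without OAC replicate 3.

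The TGF-beta pathway, which maintains cartilage matrix, had genes called in both directions, but the higher calls on ligands, receptors and Smads depended on scaling. Tgfbr3, the co-receptor betaglycan (NM_017256, chromosome 14 from 3506416 to 3680508 in rn6), stood at 55.5 and 85.9 FPKM in HC and 26.8, 28.1 and 18.5 in OAC. Each OAC library was at or below about 0.5 times the lower HC library (limma, BH-adjusted p = 0.0025). Smad3, which carries the signal to the nucleus, stood at 32.1 and 36.2 FPKM in HC and 22.5, 23.0 and 19.5 in OAC (limma, BH-adjusted p = 0.0043). Both fell with each library left out. Tgfb1, the ligand, stood at 40.3 and 47.5 FPKM in HC and 32.0, 38.9 and 37.9 in OAC and did not pass (limma, BH-adjusted p = 0.21). Tgfbr2, the signalling receptor, stood at 24.2 and 35.7 FPKM in HC and 36.7, 52.1 and 54.8 in OAC, higher in OAC without overlap, and did not pass (limma, BH-adjusted p = 0.057). Of 23 tested ligands, receptors and Smads 3 rose and 3 fell, against 23.4 and 6.27% of all genes. The median log2 change was 0.01. Without OAC replicate 2 or OAC replicate 3 there were 0 higher calls. Quantile normalization and median-of-ratios scaling each gave 0 higher and 6 lower calls, and voom on recovered reads 1 and 4. Inhba, the activin A chain, stood at 2.54 and 3.23 FPKM in HC and 12.4, 17.7 and 10.9 in OAC. Each OAC library was more than 3 times the higher HC library (limma, BH-adjusted p = 0.0024). Of 12 targets and contractile genes 3 rose, a count that held with each library left out, and 1 fell, with lower calls at 0 without HC replicate 2, OAC replicate 1 or OAC replicate 3 and 2 without OAC replicate 2.

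Igf2 and Fgfr2, a growth factor and a receptor of cartilage development, fell. Igf2, a growth factor of development (NM_001190162, chromosome 1 from 215828102 to 215834704 in rn6), stood at 15.05 and 14.4 FPKM in HC and 2.62, 4.97 and 3.56 in OAC. HC libraries were nearly equal, and OAC was 3.96 times lower (limma, BH-adjusted p = 0.0038). Igf1, an anabolic factor of cartilage, stood at 7.70 and 5.39 FPKM in HC and 10.9, 13.8 and 13.8 in OAC (limma, BH-adjusted p = 0.015) and lost its call without HC replicate 2 (limma, BH-adjusted p = 0.083) or OAC replicate 2 (0.050). Of 12 tested genes of this axis 2 rose and 1 fell, at a median log2 change of 0.04. Higher calls numbered 1 without HC replicate 1, HC replicate 2 or OAC replicate 3 and 0 without OAC replicate 2, and lower calls 2 without OAC replicate 2. Fgfr2, a receptor for fibroblast growth factors (NM_001109896, chromosome 1 from 200590951 to 200696928 in rn6), stood at 70.6 and 117 FPKM in HC and 46.3, 35.8 and 43.3 in OAC and fell with each library left out (limma, BH-adjusted p = 0.0077). Kl, the co-receptor Klotho, was under 0.1 FPKM in all 5 libraries, at 0.065 and 0.063 FPKM in HC and 0.024, 0.073 and 0.029 in OAC. Kl still counted among the tested genes, because the level filter took the mean over all 10 libraries, SHAM and KT included. Of 11 tested FGF and Klotho genes 0 rose and 1 fell, at a median of -0.46, with lower calls at 2 without HC replicate 1, HC replicate 2 or OAC replicate 2. Pthlh, which encodes the brake on chondrocyte maturation PTHrP, stood at 2.25 and 3.94 FPKM in HC and 1.80, 1.12 and 1.32 in OAC (limma, BH-adjusted p = 0.047). It lost its call without HC replicate 2 (limma, BH-adjusted p = 0.25), OAC replicate 1 (0.052), OAC replicate 2 (0.13) or OAC replicate 3 (0.11). Of 10 tested hedgehog and PTHrP genes 0 rose and 3 fell, at a median of -0.47, with lower calls at 5 without HC replicate 1, 0 without HC replicate 2 or OAC replicate 2 and 1 without OAC replicate 1.

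Genes of mechanosensing and matrix adhesion were called higher at a share close to that of all genes. Itga10, the collagen-binding integrin chain of chondrocytes, stood at 78.5 and 117 FPKM in HC and 47.7, 39.3 and 36.1 in OAC and fell with each library left out (limma, BH-adjusted p = 0.0025). Sdc1, a heparan sulfate proteoglycan of the membrane, stood at 4.75 and 8.57 FPKM in HC and 18.9, 38.0 and 35.4 in OAC (limma, BH-adjusted p = 0.0073). Aqp1, a water channel, stood at 111 and 91.8 FPKM in HC and 216, 212 and 189 in OAC (limma, BH-adjusted p = 0.0022). Sdc1 and Aqp1 rose without overlap and with each library left out. Of 19 tested genes of mechanosensing and matrix adhesion 4 rose and 3 fell, against 23.4 and 6.27% of all genes, at a median log2 change of -0.02, with lower calls at 5 without HC replicate 1 and 1 without HC replicate 2, OAC replicate 1, OAC replicate 2 or OAC replicate 3.

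The 12 largest falls among calls that held with each library left out were of genes with varied roles. Dlk1, a membrane protein related to Notch ligands (NM_053744, chromosome 6 from 133576568 to 133583748 in rn6), stood at 66.1 and 91.8 FPKM in HC and 11.9, 11.3 and 11.7 in OAC. The OAC libraries were nearly equal and 6.79 times lower in the mean (limma, BH-adjusted p = 0.0011). Penk, the enkephalin precursor, stood at 61.4 and 57.7 FPKM in HC and 16.0, 7.21 and 7.78 in OAC (limma, BH-adjusted p = 0.0012). Cntfr, the receptor of ciliary neurotrophic factor, stood at 14.97 and 22.4 FPKM in HC and 4.93, 1.30 and 1.68 in OAC (limma, BH-adjusted p = 0.0026). For both, OAC replicate 1 was the highest OAC library and still far below HC. Myoc, or myocilin, a secreted protein of connective tissues, stood at 433 and 575 FPKM in HC and 179, 87.2 and 59.3 in OAC (limma, BH-adjusted p = 0.0037). Gsn, the actin-severing protein gelsolin, stood at 1213 and 1857 FPKM in HC and 586, 369 and 298 in OAC (limma, BH-adjusted p = 0.0036). Both were highest in HC replicate 2. Log2 changes were -2.28 for Pld5, -2.13 for Adhfe1, a mitochondrial dehydrogenase, -2.05 for Fbp2, the muscle form of fructose bisphosphatase, -1.997 for Azgp1, a secreted glycoprotein, and -1.93 for Spp2, a secreted phosphoprotein. Fbp2 was more than 2 times higher in HC replicate 1, the library with muscle RNA, than in HC replicate 2. These 10 genes, with Serpina1 and Hs3st1, were chosen for groups without overlap and for calls that held with each library left out. Every lower call that held so was also called under the 3 scalings, so this does not single out these 12.

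The 12 largest rises among calls that held with each library left out included Camp, Ngp, S100a8 and S100a9 of neutrophils, defensins and Lcn2. Lcn2, a siderophore-binding protein that neutrophils and stressed chondrocytes make (NM_130741, chromosome 3 from 11414189 to 11417534 in rn6), stood at 33.9 and 30.3 FPKM in HC and 188, 321 and 319 in OAC. Each OAC library was more than 5 times either HC library, with a log2 change of 3.02 (SE 0.32) (limma, BH-adjusted p = 0.00097). Camp, the cathelicidin of neutrophil granules, stood at 128 and 119 FPKM in HC and 952, 817 and 776 in OAC (limma, BH-adjusted p = 0.00094). Ngp, another granule protein, rose 5.87-fold, and S100a8 and S100a9, the subunits of calprotectin, rose 6.27- and 6.001-fold. The defensins Defa5, Defa11 and Np4 rose 5.75-, 7.33- and 5.54-fold, but near-identical gene copies can share reads, so the split between them is uncertain. Chi3l1, a glycoprotein secreted by arthritic cartilage and by macrophages (NM_001309820, chromosome 13 from 51023137 to 51030797 in rn6), stood at 113 and 128 FPKM in HC and 519, 1149 and 1086 in OAC. In OAC every library was at least 4 times either HC library (limma, BH-adjusted p = 0.0010).

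Most genes of marrow and blood lineages rose beside these. Of 22 tested neutrophil and marrow myeloid genes 20 rose and 0 fell, at a median log2 change of 1.96, and 18 to 21 were called with a library left out. Among them were Elane, Prtn3 and Ctsg, serine proteases that are transcribed in immature marrow granulocytes, which were named after their values were seen and rose 4.06-, 3.65- and 4.13-fold, with calls that held with each library left out. Of 21 erythroid genes 16 rose and 0 fell, at a median of 1.20, and higher calls numbered 5 without HC replicate 2 and 9 without OAC replicate 1 or OAC replicate 2. Hbb, a haemoglobin chain, stood at 4781 and 4556 FPKM in HC and 13230.0, 8194 and 7454 in OAC (limma, BH-adjusted p = 0.044). It lost its call without HC replicate 1 (limma, BH-adjusted p = 0.13), HC replicate 2 (0.17), OAC replicate 1 (0.097), OAC replicate 2 (0.080) or OAC replicate 3 (0.051). Rhag, an erythroid membrane channel, stood at 11.5 and 5.39 FPKM in HC and 29.6, 23.8 and 17.9 in OAC and rose with each library left out (limma, BH-adjusted p = 0.0068). Of 12 megakaryocyte and mast cell genes 9 rose and 0 fell, at a median of 1.38, and higher calls numbered 2 without HC replicate 2 and 5 without OAC replicate 1 or OAC replicate 2. Ppbp, a platelet chemokine, stood at 28.6 and 20.3 FPKM in HC and 116, 55.7 and 62.1 in OAC (limma, BH-adjusted p = 0.0066).

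Of 18 tested B cell and precursor genes 15 rose and 0 fell, at a median log2 change of 1.39, and 13 or 14 were called with a library left out. Rag1, the recombinase that assembles lymphocyte receptors in precursors, stood at 1.10 and 1.07 FPKM in HC and 4.91, 6.03 and 5.45 in OAC (limma, BH-adjusted p = 0.0014). Vpreb3, of precursor B cells, stood at 3.73 and 5.04 FPKM in HC and 15.7, 16.7 and 17.5 in OAC (limma, BH-adjusted p = 0.0014). For both, the OAC libraries were close to each other and about 3 times HC or more. Of 22 T and NK cell genes 7 rose and 1 fell, at a median of 0.54. Higher calls there numbered 4 without OAC replicate 1, and lower calls 0 without HC replicate 2 or OAC replicate 3. Lat, an adaptor of the T cell receptor and of platelets and mast cells, stood at 3.66 and 3.62 FPKM in HC and 10.6, 10.5 and 9.50 in OAC (limma, BH-adjusted p = 0.00065). Nkg7, a granule protein of cytotoxic lymphocytes, stood at 21.0 and 18.6 FPKM in HC and 126, 81.0 and 71.1 in OAC (limma, BH-adjusted p = 0.0032). Genes of blood cell precursors rose beside mature markers, and how much of either came from marrow under the cartilage was not tested.

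Most macrophage genes rose. Of 26 tested 19 rose and 0 fell, at a median log2 change of 1.24, with 15 to 18 called when a library was left out. Tyrobp, a signalling adaptor of myeloid cells, stood at 64.7 and 65.4 FPKM in HC and 227, 273 and 249.5 in OAC. HC libraries were nearly equal, and each OAC library was more than 3 times either (limma, BH-adjusted p = 0.00066). Cd68, a lysosomal protein of macrophages, stood at 18.0 and 23.0 FPKM in HC and 68.5, 102 and 94.9 in OAC (limma, BH-adjusted p = 0.0011). Gpnmb, a glycoprotein of macrophages and osteoclasts, stood at 31.3 and 42.1 FPKM in HC and 132, 141 and 193 in OAC (limma, BH-adjusted p = 0.00093). Itgam, an integrin chain of neutrophils and macrophages, stood at 7.498 and 5.67 FPKM in HC and 34.8, 26.5 and 25.5 in OAC (limma, BH-adjusted p = 0.0021). For these 4 genes the groups did not overlap and the calls held with each library left out.

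Some inflammatory mediators rose. Of 26 tested 14 rose and 1 fell, at a median log2 change of 0.56. Higher calls numbered 7 without HC replicate 1 and 9 without OAC replicate 2, and lower calls 0 without HC replicate 2 or OAC replicate 2. Il1b, a cytokine that raises protease genes in chondrocytes, stood at 1.47 and 0.887 FPKM in HC and 3.56, 4.43 and 2.64 in OAC (limma, BH-adjusted p = 0.0087). Il1rn, the antagonist of its receptor, stood at 3.30 and 1.75 FPKM in HC and 7.93, 8.002 and 6.45 in OAC (limma, BH-adjusted p = 0.0048). Osmr, the receptor of oncostatin M, stood at 3.41 and 5.24 FPKM in HC and 8.55, 9.15 and 9.37 in OAC (limma, BH-adjusted p = 0.0039). These 3 genes rose without overlap and with each library left out. Il6 was below the level filter, at 0.268 and 0.653 FPKM in HC and 0.068, 0.083 and 0.264 in OAC, and Tnf was listed at 0 in all 5 libraries. Of 24 chemokine genes 9 rose and 0 fell, at a median of 0.53. Higher calls numbered 5 without HC replicate 1 or HC replicate 2, and lower calls 1 without OAC replicate 2. Cxcr4, a receptor that keeps blood cells in the marrow, stood at 16.8 and 10.7 FPKM in HC and 51.9, 51.5 and 43.6 in OAC and rose throughout (limma, BH-adjusted p = 0.0014). Ccl2, the monocyte attractant, stood at 2.45 and 3.10 FPKM in HC and 21.8, 7.67 and 8.80 in OAC, highest in OAC replicate 1 (limma, BH-adjusted p = 0.016). Its call was lost without HC replicate 1 (limma, BH-adjusted p = 0.065).

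Complement, interferon and antigen genes rose in part. Of 22 complement genes 11 rose and 0 fell, at a median log2 change of 0.82, with 8 to 12 called higher when a library was left out, and lower calls at 1 without OAC replicate 2. C1s, a protease that starts the classical pathway, stood at 14.5 and 18.3 FPKM in HC and 53.4, 67.1 and 54.9 in OAC (limma, BH-adjusted p = 0.00060). C3, the central component, stood at 8.45 and 4.55 FPKM in HC and 27.1, 26.6 and 24.2 in OAC (limma, BH-adjusted p = 0.0021). For both the OAC libraries were close to each other and far above HC. Of 31 interferon response genes 14 rose and 0 fell, at a median of 0.51. Higher calls numbered 8 without HC replicate 1 and 9 without OAC replicate 2, and lower calls 2 without HC replicate 1. Rsad2, an antiviral enzyme, stood at 11.8 and 9.14 FPKM in HC and 40.2, 33.3 and 24.5 in OAC (limma, BH-adjusted p = 0.0015). Of 15 genes of antigen processing 5 rose and 0 fell, at a median of 0.36. Psmb8, a subunit of the immunoproteasome, stood at 6.76 and 7.46 FPKM in HC and 17.4, 17.1 and 18.2 in OAC (limma, BH-adjusted p = 0.00060).

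Cell division genes rose almost without exception. Of 38 tested genes of S phase and mitosis 37 rose and 0 fell, at a median log2 change of 1.38, and 33 to 38 were called with a library left out. Mki67, the marker of cycling cells, stood at 13.5 and 6.06 FPKM in HC and 33.0, 30.7 and 22.0 in OAC (limma, BH-adjusted p = 0.0065). Top2a, the topoisomerase that untangles chromosomes, stood at 10.9 and 6.13 FPKM in HC and 35.02, 32.3 and 25.7 in OAC (limma, BH-adjusted p = 0.0032). Cdk1, the mitotic kinase, stood at 13.9 and 9.87 FPKM in HC and 45.9, 43.0 and 32.2 in OAC (limma, BH-adjusted p = 0.0014). For all of them HC replicate 2 was the lowest library and OAC replicate 1 the highest, the same order as in the erythroid and neutrophil shares, and the part of dividing marrow cells in these genes was not tested. Of 19 genes of cell cycle inhibition and senescence 6 rose and 0 fell, at a median of 0.27, with lower calls at 1 without HC replicate 2. Cdkn2c, an inhibitor of the kinases that open the cycle, rose, at 4.79 and 4.33 FPKM in HC and 12.8, 11.7 and 9.18 in OAC (limma, BH-adjusted p = 0.0044). Cdkn1a, the p21 inhibitor, stood at 17.4 and 11.5 FPKM in HC and 10.3, 15.4 and 15.7 in OAC and overlapped between the groups (limma, BH-adjusted p = 0.90).

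Metabolic and stress lists also held calls, to be read against 23.4% called higher and 6.27% lower of all genes. Of 31 cholesterol genes 14 rose and 1 fell, at a median log2 change of 0.43, and higher calls numbered 7 without HC replicate 1 or OAC replicate 1. Idi1, an isomerase of the sterol pathway, rose, at 3.40 and 2.96 FPKM in HC and 9.38, 6.72 and 7.93 in OAC (limma, BH-adjusted p = 0.0017). Srebf1, a regulator of fatty acid synthesis, fell, at 20.2 and 22.0 FPKM in HC and 11.6, 9.21 and 7.54 in OAC (limma, BH-adjusted p = 0.0063). Both held with each library left out. Of 17 zinc transport and metallothionein genes 8 rose and 0 fell, at a median of 0.51, and higher calls numbered 2 without HC replicate 1, OAC replicate 2 or OAC replicate 3. Slc30a7, a zinc transporter of the Golgi, stood at 4.82 and 6.78 FPKM in HC and 11.0, 11.2 and 12.2 in OAC and rose throughout (limma, BH-adjusted p = 0.0022). Mt3, a metallothionein, stood at 9.87 and 19.9 FPKM in HC and 53.1, 48.0 and 112 in OAC (limma, BH-adjusted p = 0.032) and lost its call without HC replicate 1 (limma, BH-adjusted p = 0.15), OAC replicate 1 (0.054), OAC replicate 2 (0.052) or OAC replicate 3 (0.090).

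Of 29 hypoxia and glycolysis genes 4 rose and 0 fell, at a median log2 change of 0.13. Higher calls numbered 2 without OAC replicate 2 or OAC replicate 3, and lower calls 1 without HC replicate 1 and 5 without HC replicate 2. Eno1, a glycolytic enzyme, rose, at 52.8 and 66.1 FPKM in HC and 96.4, 99.0 and 99.0 in OAC (limma, BH-adjusted p = 0.0051). Vegfa, the vessel growth factor, stood at 90.0 and 108 FPKM in HC and 68.5, 92.8 and 96.8 in OAC and overlapped between the groups (limma, BH-adjusted p = 0.48). Of 24 genes of oxidative stress defence 10 rose and 1 fell, at a median of 0.35. Higher calls numbered 5 without HC replicate 2 or OAC replicate 2, and lower calls 0 without HC replicate 2 or OAC replicate 2. Gpx1, a peroxidase abundant in red cells, rose, at 241 and 207 FPKM in HC and 535, 505 and 445 in OAC (limma, BH-adjusted p = 0.0013). Sod3, the extracellular superoxide dismutase of cartilage, fell, at 704 and 1127 FPKM in HC and 561, 384 and 365 in OAC (limma, BH-adjusted p = 0.016), and lost its call without HC replicate 2 (limma, BH-adjusted p = 0.084) or OAC replicate 2 (0.054). Of 29 genes of the unfolded protein response and secretion 7 rose and 2 fell, close to the 23.4 and 6.27% of all genes, at a median of 0.25. Higher calls numbered 12 without HC replicate 2, and lower calls 0 without HC replicate 2, OAC replicate 2 or OAC replicate 3 and 1 without OAC replicate 1. Sdf2l1, a chaperone partner of the endoplasmic reticulum, rose, at 9.29 and 6.06 FPKM in HC and 22.7, 20.5 and 20.1 in OAC (limma, BH-adjusted p = 0.0011).

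Some genes of the circadian clock, a loop of activators and repressors, fell. Of 15 tested 0 rose and 6 fell, against 6.27% of all genes, at a median log2 change of -0.45. Lower calls numbered 3 without OAC replicate 2, and higher calls 1 without HC replicate 1. Tef, an output transcription factor, stood at 10.2 and 13.4 FPKM in HC and 5.13, 5.12 and 5.94 in OAC (limma, BH-adjusted p = 0.0017). Cry2, a repressor of the loop, stood at 16.2 and 19.5 FPKM in HC and 10.2, 11.4 and 12.3 in OAC (limma, BH-adjusted p = 0.0061). Both calls held with each library left out. Nr1d1, or Rev-erb alpha, which represses Arntl, stood at 40.9 and 96.3 FPKM in HC and 24.4, 20.3 and 29.1 in OAC (limma, BH-adjusted p = 0.020) and lost its call without HC replicate 2 (limma, BH-adjusted p = 0.092) or OAC replicate 2 (0.063). HC replicate 2 was the highest library for these 3 genes. Arntl, the activator of the loop, stood at 19.9 and 15.4 FPKM in HC and 17.2, 12.9 and 10.9 in OAC and overlapped between the groups (limma, BH-adjusted p = 0.17). The hour of tissue collection was not given in the sources used here, and its part in these genes was not tested. The E-box CACGTG, the site of the clock activators, was found within the 250 bases before the start of 1 of the 6 genes that fell, Tef, and of 2 of the 7 with a promoter that did not pass, Ciart and Bhlhe40. It was present in 5.59% of all promoters in the table.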

How the data were processed

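The 5 libraries of poly(A) RNA came from rat knee cartilage, 3 OAC and 2 HC. Per the submitters' processing notes, reads were checked with FastQC 0.11.2, aligned with STAR 2.5.3a to rn6, counted with HOMER and compared with DESeq2 1.18.1. Per the file headers, the authors counted exons by strand, kept 1 transcript per gene and deposited FPKM, and the authors' deposited table gives log2 fold changes with p-values and adjusted p-values. FPKM steps gave whole reads for 100% of the values checked, within 0.15 of a read, and these gave the depths and the voom alternative. Coordinates are those of the FPKM table.

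Here log2(FPKM + 1) of genes averaging 0.5 FPKM or more was fitted by group in limma 3.58.1 with a trend, over all 10 libraries, two-sided, with Benjamini-Hochberg adjustment over 11282 genes. The same script was tested on simulated data with 200 changed genes. The simulated noise was independent between libraries, without muscle RNA, marrow RNA or scaling differences, so that test does not bear on them. Genes were named by rule: the 12 largest changes in each direction whose groups did not overlap and whose call held in all 5 leave-one-out fits, up to 6 called members per list, those holding in all 5 first, and a few key genes at any value. The members and lists were chosen with earlier results of these data known. Fold values are ratios of mean FPKM. Alternatives were another pseudocount, other filters, HC and OAC libraries alone, the replicate block, 3 scalings, array weights, muscle and marrow scores as covariates and leaving out each library. Col10a1 and Gdf5 were not analysed here.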

Additional observations from a re-analysis of the deposited data

How the results depend on the processing

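The count of 3348 calls moved by more than 1.5 times to 2206 with the replicate block, 1974 with array weights and 0 with the marrow score as a covariate. Higher calls (2641) became 1727 under quantile normalization, 1732 under median-of-ratios scaling, 1596 with array weights and 0 with the marrow score. Lower calls (707) became 428 with HC and OAC libraries alone, 375 with the replicate block, 1274 and 1353 under those scalings, 378 with array weights and 0 with the marrow score. With each library left out in turn, limma called 2163 to 3098 genes, 1778 to 2275 higher and 385 to 1014 lower. The fewest calls came without OAC replicate 2. For the marrow score, whose groups do not overlap, marrow and injury cannot be told apart. Elsewhere the cause was not tested. Same-numbered HC and OAC libraries correlated at -0.26 and -0.42 after removal of group means. With 2 HC libraries, HC replicate 1 and HC replicate 2 give equal and opposite values, so these correlations cannot decide on pairing. The numbers were not taken to pair libraries.

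Signs turned for genes that had not passed. Without HC replicate 1 the log2 change of Ckm was 0.16, and its range with each library left out was -7.13 to 0.16. Runx2 was -0.011 under median-of-ratios scaling, with a range of -0.087 to 0.41. Timp3 was -0.10 under quantile normalization and -0.053 under median-of-ratios scaling, with a range of -0.16 to 0.42. Hapln1 was -0.12, -0.078 and -0.014 under quantile normalization, median-of-ratios scaling and voom, with a range of -0.31 to 0.52. Cdkn1a was 0.027 with array weights, with a range of -0.33 to 0.23.

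Of 286 genes named by rule 271 were called, 105 lost the call with 1 library left out, 49 under a scaling, and 238 kept it with the muscle score as a covariate. The rule put calls that held with each library left out first, so these counts cannot stand for all calls. With 2 HC libraries, a difference that rests on HC replicate 1 or 2 has no second control to set against it. Genes under 0.5 FPKM on average were not tested.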

Other observations

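Genes of other tissues of the joint changed in small numbers, to be read against 23.4% called higher and 6.27% lower of all genes. Of 13 tested adipocyte genes 3 rose and 2 fell, at a median log2 change of -0.53, which was 0.22 without HC replicate 1 and -0.93 without HC replicate 2, and lower calls numbered 5 without HC replicate 2. Cidea, a lipid droplet protein, fell, at 11.0 and 14.5 FPKM in HC and 3.34, 3.21 and 2.66 in OAC (limma, BH-adjusted p = 0.00098). Lpl, the lipoprotein lipase, fell, at 12.9 and 11.1 FPKM in HC and 6.47, 6.57 and 5.83 in OAC (limma, BH-adjusted p = 0.0041). Cfd, the complement protease adipsin, rose, at 40.8 and 37.7 FPKM in HC and 113, 130.3 and 128 in OAC (limma, BH-adjusted p = 0.0018). For these 3 the groups did not overlap and the calls held with each library left out. Of 18 endothelial genes 1 rose and 1 fell, at a median of 0.28, with higher calls at 0 without HC replicate 1, OAC replicate 2 or OAC replicate 3 and 5 without OAC replicate 1, and lower calls at 0 without HC replicate 1, HC replicate 2, OAC replicate 2 or OAC replicate 3. Of 13 smooth muscle and pericyte genes 0 rose and 2 fell, at a median of -0.30, with higher calls at 1 without OAC replicate 1, and lower calls at 0 without HC replicate 1 and 1 without OAC replicate 1 or OAC replicate 3. Of 7 nerve genes 2 rose and 0 fell, with higher calls at 1 without HC replicate 1, OAC replicate 1 or OAC replicate 3 and 0 without HC replicate 2. Of 3 tested skin genes 2 rose and 0 fell, with higher calls at 1 without OAC replicate 2 or OAC replicate 3. Krt5 and Krt14, which define skin keratinocytes, were listed at 0 in all 5 libraries, which does not show that skin was absent. Of 9 basement membrane genes 1 rose, with higher calls at 2 without HC replicate 2 and 3 without OAC replicate 1, and lower calls at 1 without HC replicate 1. Of 9 tendon genes 1 rose, with higher calls at 0 without HC replicate 1, and lower calls at 1 without HC replicate 2.

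Signalling lists outside the main axes also held calls, to be read against the same shares of all genes, 23.4 and 6.27%. Of 16 Notch genes 2 rose and 1 fell, with higher calls at 1 without HC replicate 2, OAC replicate 1, OAC replicate 2 or OAC replicate 3. Mfng, which modifies Notch receptors with sugar, rose, at 3.58 and 3.44 FPKM in HC and 9.29, 11.4 and 10.8 in OAC (limma, BH-adjusted p = 0.0020). Of 21 immediate early genes 3 rose and 0 fell, with higher calls at 1 without HC replicate 1 or OAC replicate 2, and lower calls at 1 without HC replicate 1 or OAC replicate 2. Myc, a growth-promoting transcription factor, rose, at 3.85 and 3.94 FPKM in HC and 8.60, 8.98 and 8.70 in OAC, with no overlap and a call that held throughout (limma, BH-adjusted p = 0.0011). Of 12 genes of FGF and ERK feedback 3 rose and 0 fell, with higher calls at 1 without HC replicate 1, HC replicate 2 or OAC replicate 3 and 0 without OAC replicate 2, and lower calls at 2 without HC replicate 1. Of 5 neurotrophin and pain genes 1 fell, Cntfr, with lower calls at 2 without HC replicate 1. Values at or near 0, those of Tnfsf11, Tnf, Krt5 and Krt14 among them, are given as listed only and do not show absence. Of entries chosen after their values were seen, Col1a2, the partner chain of Col1a1, was listed at 0.011 and 0.008 FPKM in HC and 0.026, 0.051 and 0.097 in OAC, and Ndufa1, a respiratory chain subunit of every cell, at 0 and 0 FPKM in HC and 0.034, 0 and 0 in OAC.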
